A study of Mus musculus with 11 samples.

Results

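Gja1, Gjb6, Aldoc and Fgfr3 are 4 genes of astrocytes, chosen by gene symbol from the 1767 genes of an RNA-seq table of mouse striatal cells. The table holds only genes with a p-value under 0.05 in the authors' own comparison of knockdown with control, so the 4 genes had already been picked for this difference, and their group differences are a description of the table. The question followed here is how each gene was distributed over the single samples, and how far the 4 moved together within each group.

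Male wild-type mice of strain C57BL/6 were injected at 6 weeks of age in the striatum of both hemispheres with adeno-associated virus in which the CAG promoter, which is not restricted to neurons, drove EmGFP. The control vector carried the non-targeting miRNA NT-2 (NT2, 6 samples), and the knockdown vector carried miRNAs against NF-YA and NF-YC (YA-8/YC-2, here YAYC, 5 samples). The striata were dissociated 3 weeks later, and green cells were collected by flow sorting, whose gate could hold any transduced cell type and, by carry-over, untransduced cells. In the study's tissue sections, most green cells carried the neuronal marker NeuN and a few did not. The paper reports that its differing genes partly included genes of glial cells. It names partial infection of glia, or glia carried along in sorting, as possible reasons. Genes much lower in isolated striatal neurons than in total striatum were therefore taken out of its final gene list. Whether the 4 genes were among those taken out was not examined here. Samples keep the number of their label, namely 3, 5, 7, 9, 21 and 23 for NT2 and 4, 6, 8, 10 and 22 for YAYC. The estimated counts of the table added up to between 1581757 and 3141324 per NT2 sample (median 2673735) and between 1954949 and 3010153 per YAYC sample (median 2281409). NT2 sample 3 had the lowest sum of all samples. Genes outside the table do not enter these sums, which therefore fall short of the sequencing depth of a sample.

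Astrocytes are coupled into networks by gap junctions, channels through which ions and small metabolites pass from cell to cell. Gja1 and Gjb6 encode the main connexins of these channels in astrocytes. Aldoc encodes the brain form of the glycolytic enzyme aldolase, which is concentrated in astrocytes, and Fgfr3 encodes a receptor tyrosine kinase for fibroblast growth factors that marks astrocytes and their precursors in the adult brain.

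The targeted gene Nfyc, which encodes the C subunit of NF-Y, was examined first. Its normalized count (estimated count divided by a TMM factor for the sample) was 733 at the lowest, 898 at the median and 1206 at the highest in the 6 NT2 samples. In the YAYC samples it was 976 in sample 4, 840 in sample 6, 887 in sample 8, 603 in sample 10 and 722 in sample 22. The groups overlapped, with 4 of the 6 controls inside the knockdown range, and the fold change did not pass edgeR's quasi-likelihood test (log2 fold change −0.19, SE 0.15, Benjamini-Hochberg adjusted p = 0.255). With the authors' own factors per sample, recovered from their log2 values, it was −0.32 (edgeR adjusted p = 0.0531). In the paper, qRT-PCR of the sorted cells showed reduced NF-YC, while the reduction of NF-YA was not significant. Nfya and Nfyb are not in the table and were not analysed here.

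The first of the connexin genes, Gja1 (gene ID 14609), lies on the plus strand at chr10:56097079-56110225 of the mm9 build that the submitters' processing notes name. Its normalized count was 2974 in NT2 sample 3, 10593 in sample 5, 8337 in sample 7, 8149 in sample 9, 11432 in sample 21 and 4351 in sample 23. In YAYC it was 2355 in sample 4, 2130 in sample 6, 3447 in sample 8, 5298 in sample 10 and 5522 in sample 22. Most controls were above every knockdown sample, but NT2 samples 3 and 23 lay inside the knockdown range, so the groups overlapped. The means were 7639 ± 3359 (SD, n = 6) in NT2 and 3750 ± 1597 (SD, n = 5) in YAYC. In bulk samples, fewer astrocytes among the sorted cells and less RNA of the gene per astrocyte cannot be told apart, for Gja1 and for the other astrocyte genes that were lower.

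The other connexin gene, Gjb6 (gene ID 14623), lies on the minus strand at chr14:57742140-57752414 (mm9). In NT2 its normalized count was 281 in sample 3, 1265 in sample 5, 976 in sample 7, 575 in sample 9, 1533 in sample 21 and 492 in sample 23. In YAYC it was 161 in sample 4, 271 in sample 6, 333 in sample 8, 335 in sample 10 and 372 in sample 22. The single control within the knockdown range was sample 3, and the other 5 controls were above all knockdown samples. Gjb6 averaged 853 ± 486 (SD, n = 6) in NT2 and 294 ± 82.9 (SD, n = 5) in YAYC. Its highest control was 5.46 times its lowest, against 2.31 times between the highest and lowest knockdown samples.

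Aldoc (gene ID 11676), the glycolytic gene, lies on the plus strand at chr11:78136682-78140262 (mm9). It reached 7389 normalized counts in NT2 sample 3, 19864 in sample 5, 15339 in sample 7, 15699 in sample 9, 29549 in sample 21 and 9250 in sample 23. In YAYC the values were 3962 in sample 4, 4596 in sample 6, 7255 in sample 8, 9509 in sample 10 and 11338 in sample 22. Samples 3 and 23 were again the controls inside the knockdown range, and sample 21 was the highest of all. The means were 16182 ± 7982 (SD, n = 6) in NT2 and 7332 ± 3148 (SD, n = 5) in YAYC.

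Fgfr3 (gene ID 14184), the receptor gene, lies on the plus strand at chr5:34064373-34079713 (mm9). Its normalized count in NT2 was 644 in sample 3, 3530 in sample 5, 2483 in sample 7, 2698 in sample 9, 5055 in sample 21 and 1216 in sample 23. In YAYC it was 493 in sample 4, 709 in sample 6, 966 in sample 8, 1305 in sample 10 and 1549 in sample 22. The overlap was of the same kind as for Gja1 and Aldoc, with NT2 samples 3 and 23 inside the knockdown range. GENCODE M21 places 1 antisense transcript model over Fgfr3, and counts without strand cannot tell its reads apart. Fgfr3 averaged 2604 ± 1591 (SD, n = 6) in NT2 and 1004 ± 429 (SD, n = 5) in YAYC. It had the widest range among the 4 genes within the controls, the highest being 7.85 times the lowest.

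**Figure D1:**
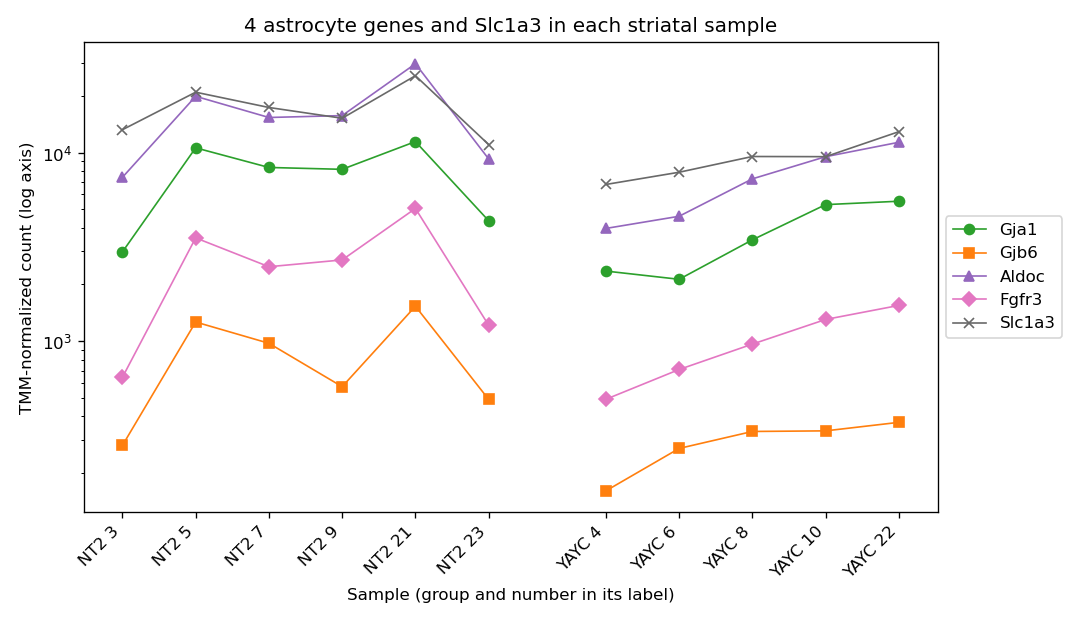
TMM-normalized count (log axis) of Gja1, Gjb6, Aldoc, Fgfr3 and the astrocyte glutamate transporter gene Slc1a3 in each of the 11 samples, with NT2 on the left and YAYC on the right; lines join the points of 1 gene within a group and carry no order. NT2 sample 3 is low for all 4 genes (Fgfr3 at 644) and NT2 sample 21 high (Fgfr3 at 5055), while Slc1a3 spans a narrower range in NT2 (11024 to 25538).

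All 4 genes were called lower in YAYC by edgeR's quasi-likelihood test at a Benjamini-Hochberg adjusted p under 0.05 over the 1767 genes. In the same fit 21.3% of all listed genes were called lower, and since the authors' filter used this contrast, nothing is read from that count. The log2 fold change was −1.03 for Gja1 (SE 0.36, edgeR adjusted p = 0.032), −1.54 for Gjb6 (SE 0.39, edgeR adjusted p = 0.0143), −1.14 for Aldoc (SE 0.37, edgeR adjusted p = 0.0247) and −1.37 for Fgfr3 (SE 0.46, edgeR adjusted p = 0.0273). The fitted level in YAYC was thus 49.1% of that in NT2 for Gja1, 34.5% for Gjb6, 45.3% for Aldoc and 38.6% for Fgfr3.

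The two-sided exact permutation test over the divisions of the 11 samples, on log2 of the normalized count plus 0.5, gave p = 0.052 for Gja1, 0.0173 for Gjb6, 0.0346 for Aldoc and 0.0649 for Fgfr3. The smallest p this exact test can give is 0.00433. For none of the 4 genes (0 of 4) were all knockdown samples below all controls, which held for 2.43% of the listed genes. Leaving NT2 sample 3 aside, this separation was met by 1 of the 4, Gjb6, and by 7.75% of the listed genes.

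With the authors' scaling factors the differences were larger, because these factors shifted the median log2 fold change of all listed genes from −0.13 to −0.27. Gja1 then stood at −1.18, Gjb6 at −1.69, Aldoc at −1.29 and Fgfr3 at −1.53, and 4 of the 4 were called lower, beside 47.3% of the listed genes. Of all listed genes, 377 were called lower and 689 higher with TMM, against 836 lower and 569 higher with the authors' factors. Relative to the median of the table, the values were close under both scalings, at −0.89 (TMM) and −0.91 (authors' factors) for Gja1, −1.40 and −1.43 for Gjb6, −1.01 and −1.03 for Aldoc, and −1.24 and −1.26 for Fgfr3.

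Single samples decided some of these calls. Gja1 no longer passed edgeR's test without NT2 sample 5 (log2 fold change −0.91), 7 (−0.9997), 9 (−0.99) or 21 (−0.88), or without YAYC sample 4 (−0.90), 6 (−0.88) or 8 (−0.997). Aldoc did not pass without NT2 sample 21 (−0.88) or YAYC sample 4 (−0.99) or 6 (−1.01), and neither did Fgfr3 (−1.07, −1.20 and −1.27 in the same order), which left 1 of the 4 genes called without any of these 3. Gjb6 passed edgeR's test whichever sample was left out. The adjusted p of Gja1, Aldoc and Fgfr3 in these refits was between 0.0503 and 0.0694.

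The labels name no batch, but the sample numbers fall into 3 to 10 and 21 to 23. The paper gives RNA integrity, sorted cell numbers and sequencing lanes for the samples together. None of these could be assigned to a single sample here. Within numbers 3 to 10 (4 controls and 4 knockdown samples) the log2 fold changes were −1.18 for Gja1, −1.50 for Gjb6, −1.20 for Aldoc and −1.43 for Fgfr3, and 0 of the 4 were called (edgeR adjusted p between 0.0513 and 0.0609), although 4 of the 4 had an unadjusted p under 0.05. In these samples 3.23% of all listed genes were called lower. With the number block as a covariate over all 11 samples, 4 of the 4 were called lower (edgeR adjusted p between 0.0187 and 0.0397), beside 17.9% of the listed genes. The exact permutation p in these 8 samples was 0.0857 for Gja1 and Gjb6, 0.0571 for Aldoc and 0.114 for Fgfr3, where 0.0286 is the smallest possible. Numbers 21 to 23 hold only 1 knockdown sample and allow no test.

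Per length, the order of the levels was Aldoc, Gja1, Fgfr3, Gjb6 in each of the 11 samples. Divided by the longest coding transcript of each gene in GENCODE M21 (2786 bases for Aldoc, 3182 for Gja1, 4245 for Fgfr3 and 2105 for Gjb6), the median level in NT2 was 5570 normalized counts per kilobase for Aldoc, 2590 for Gja1, 610 for Fgfr3 and 368 for Gjb6. In YAYC the medians per kilobase were 2604, 1083, 228 and 158 in that order. Across the controls the ranges per kilobase of neighbours in this order overlapped for every neighbouring pair, and only within a sample were they apart.

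Within the controls alone, where no group difference enters, the 4 genes moved together closely. Over the 6 NT2 samples, Pearson's r of the log2 values was 0.941 for Gja1 with Gjb6, 0.961 for Gja1 with Aldoc, 0.99 for Gja1 with Fgfr3, 0.939 for Gjb6 with Aldoc, 0.941 for Gjb6 with Fgfr3 and 0.981 for Aldoc with Fgfr3. The exact permutation p of r lay between 0.00139 and 0.00556 (0.00333 to 0.00556 after Benjamini-Hochberg adjustment over the 6 pairs), and 0.00139 is the smallest that 6 samples allow. Spearman's rho was 1.0 for Gja1 with Gjb6 and for Aldoc with Fgfr3 (exact permutation p = 0.00278, adjusted 0.00833) and 0.943 for the other 4 pairs (exact permutation p = 0.0167, adjusted 0.0167). Every gene was highest in sample 21 and next highest in sample 5, and lowest in sample 3 and next lowest in sample 23.

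Part of this correlation among controls rested on the ends of the range. Without the 2 controls farthest from the median of the first gene of a pair (sample 3 with 23, or sample 3 with 21), r over the remaining 4 was between 0.777 for Gjb6 with Fgfr3 and 0.998 for Aldoc with Fgfr3. Without NT2 sample 3 alone, the median r of the 6 pairs was 0.917, against 0.951 over all 6 controls.

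The knockdown group has 5 samples and is described by its values. Gjb6, Aldoc and Fgfr3 placed the knockdown samples in 1 shared order, from sample 4 as the lowest over samples 6, 8 and 10 to sample 22 as the highest, and Gja1 differed from it only in having sample 6 below sample 4. With each gene centred on its group means, r over all 11 samples was between 0.871 (Gja1 with Gjb6) and 0.968 (Aldoc with Fgfr3), and rho between 0.827 and 0.982. The permutation p within groups, adjusted over the 6 pairs, was at most 0.00015 for r and 0.00312 for rho. Without the 2 samples farthest from the median, r stayed between 0.812 and 0.978.

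**Figure D2:**
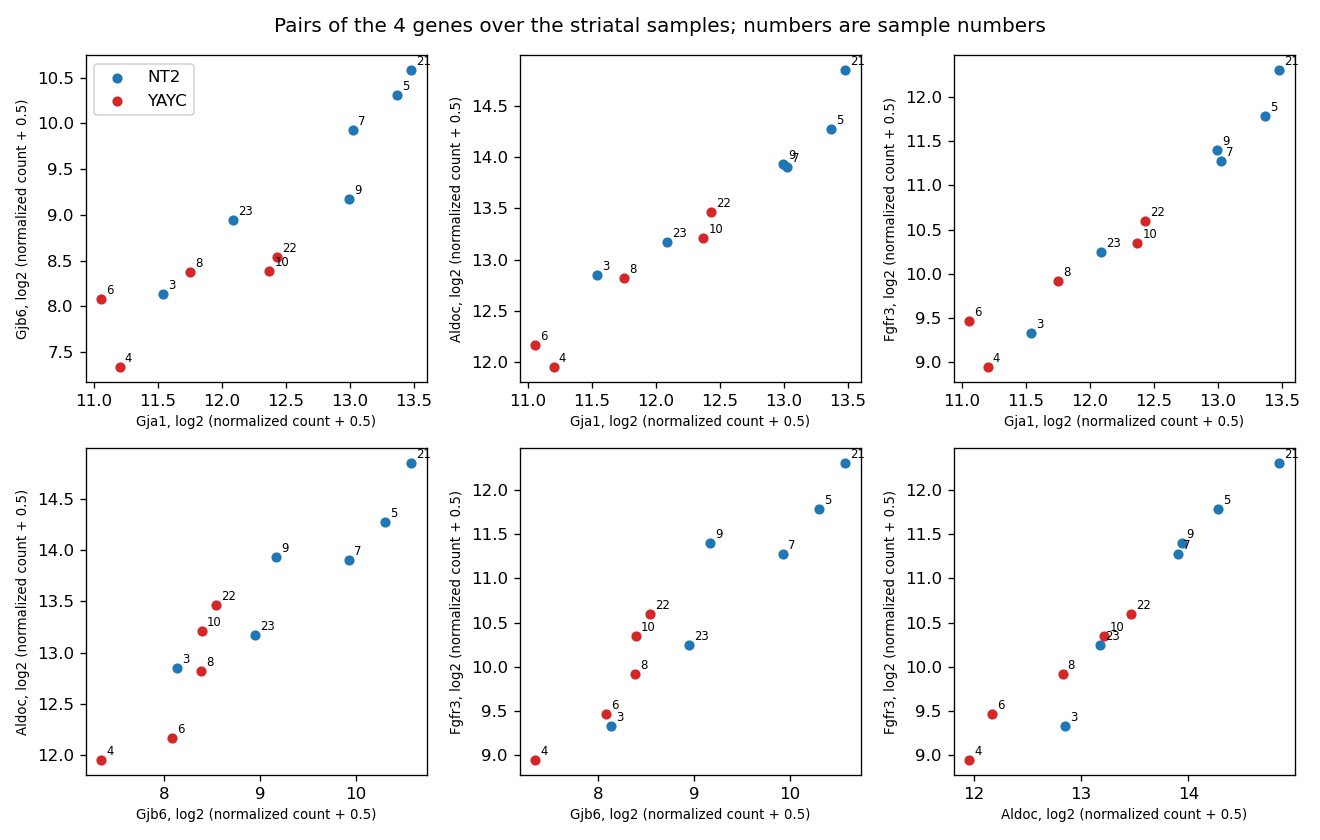
Each panel plots 2 of the 4 genes against each other as log2 of the normalized count plus 0.5, with 1 point per sample (NT2 blue, YAYC red) and the sample number beside it. The red and blue points follow nearly the same line, and NT2 sample 3 lies among the knockdown samples, as does sample 23 in the panels without Gjb6; r in NT2 runs from 0.939 to 0.99.

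Ratios between the genes varied less over samples than the genes themselves. In NT2 the SD of the log2 value was 0.77 for Gja1, 0.93 for Gjb6, 0.73 for Aldoc and 1.08 for Fgfr3, whereas the SD of the log2 ratio of 2 of the genes was between 0.21 (Gja1 to Aldoc) and 0.40 (Aldoc to Fgfr3). In YAYC the genes had SDs of 0.64, 0.48, 0.65 and 0.67 in that order, and the ratios from 0.11 (Aldoc to Fgfr3) to 0.43 (Gja1 to Gjb6). The SD of 0.40 for Aldoc to Fgfr3 in NT2 rested on sample 3, and without that sample it was 0.17, the lowest of the 6 ratios.

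No ratio passed a test between the groups (0 of 10 by exact permutation tests, with or without Benjamini-Hochberg adjustment, for 6 ratios among the genes and 4 to Slc1a3). The mean log2 ratio of Gja1 to Gjb6 was 3.24 in NT2 and 3.62 in YAYC, a difference of 0.38 (SE 0.23, two-sided exact permutation p = 0.143, adjusted 0.527), and this was the widest among the 6 ratios. Aldoc to Fgfr3 had the narrowest difference over the 11 samples, at 2.78 in NT2 and 2.87 in YAYC (difference 0.09, SE 0.17, exact permutation p = 0.667, adjusted 0.667). Without NT2 sample 3 this difference was 0.24 (exact permutation p = 0.0397, adjusted 0.132) and that of Gja1 to Aldoc, at 0.08, was narrower. Aldoc to Fgfr3 was also not the narrowest in samples 3 to 10, or without NT2 sample 23, YAYC sample 10 or YAYC sample 22. Without YAYC sample 6 the ratio of Gja1 to Gjb6 differed by 0.54 (exact permutation p = 0.0286, adjusted 0.286). A p that misses the threshold does not show that the 4 genes differed equally between the groups.

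Slc1a3, a glutamate transporter gene of astrocytes, served as a reference outside the 4. Its normalized count was 11024 at the lowest, 16265 at the median and 25538 at the highest in NT2, and 6775, 7865, 9530, 9510 and 12903 in YAYC samples 4, 6, 8, 10 and 22. It was also called lower (log2 fold change −0.88, SE 0.22, edgeR adjusted p = 0.0143), and its spread in NT2 was smaller, with an SD of 0.44 on the log2 scale. Gjb6 to Slc1a3 had the largest difference among the 4 ratios to Slc1a3, a mean log2 ratio of −4.50 in NT2 and −5.00 in YAYC (difference −0.50, SE 0.26, exact permutation p = 0.108, adjusted 0.527). Without NT2 sample 3 this difference was −0.71 (exact permutation p = 0.00794, adjusted 0.0794) and that of Fgfr3 to Slc1a3 was −0.62 (exact permutation p = 0.0317, adjusted 0.132).

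NT2 sample 3 departed from the other controls in the ratio of Gja1 to Slc1a3, which was −2.15 on the log2 scale there. It was the lowest control for 4 of the 4 genes and for 18 of the other 22 astrocyte genes of the table, against 496 of all 1767 listed genes (28.1%). Nfyc was highest among the controls in this sample, at 1206. Leaving it out, the log2 fold changes were larger for all 4 genes, from −1.19 for Gja1 to −1.72 for Gjb6.

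The astrocyte list held 66 symbols, of which 26 were in the table, the 4 genes included. Among these 26, 22 were called lower, 1 higher and 3 were not called with TMM, and 24 were lower, 1 higher and 1 not called with the authors' factors. Of all listed genes, 21.3% were lower and 39.0% higher with TMM, and 47.3% lower and 32.2% higher with the authors' factors. The median log2 fold change of the 26 was −0.996, against −0.13 for all listed genes. Their summed normalized count, led by Slc1a3, was 53007 at the lowest (sample 3), 99546 at the median and 143877 at the highest in NT2, and 40291, 53981 and 66710 at the same points in YAYC. Below all of the 4 genes stood Cyp4f15 (−1.97, SE 0.53, edgeR adjusted p = 0.016), a cytochrome P450 gene, Btbd17 (−1.88, SE 0.47, edgeR adjusted p = 0.014) and Gpc5, a glypican gene (−1.69, SE 0.44, edgeR adjusted p = 0.0155). Slc1a2, Aqp4, Gfap, Aldh1l1, S100b and Sox9, which also mark astrocytes, are not in the table and were not analysed. The 26 genes are thus the part of the list that passed the authors' filter on this contrast.

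The remaining 4 genes of the list were not called lower with TMM. Glul, which encodes glutamine synthetase, averaged 7919 ± 834 (SD, n = 6) in NT2 and 7116 ± 812 (SD, n = 5) in YAYC, with a log2 fold change of −0.15 (edgeR adjusted p = 0.208). Hepacam, a cell adhesion gene, stood at −0.37 (edgeR adjusted p = 0.0519) and Slc25a18, a mitochondrial glutamate carrier gene, at −0.53 (edgeR adjusted p = 0.123), and with the authors' factors Glul (edgeR adjusted p = 0.0423) and Hepacam (edgeR adjusted p = 0.0265) were called lower, while Slc25a18 was not (edgeR adjusted p = 0.0532). Slc14a1, a urea transporter gene, rose from 427 ± 123 (SD, n = 6) in NT2 to 832 ± 319 (SD, n = 5) in YAYC (log2 fold change 0.96, SE 0.27, edgeR adjusted p = 0.0182).

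Likeness to the 4 genes from sample to sample also varied over the list. The likeness measure was Pearson's r with the mean log2 value of the 4 genes over the 11 samples, centred on group means. Of the other 22 astrocyte genes in the table, 16 had r of 0.8 or more, and the median was 0.898. Among all 1571 genes outside the 4 with a mean normalized count of at least 20, 68 had r above 0.8. The 3 genes under 0.5 were Glul (0.309), Slc25a18 (0.421) and Slc14a1 (−0.09), and without NT2 sample 3 these stood at 0.157, 0.293 and 0.0127 and 5 genes were under 0.5, with Daam2 at 0.335 (0.597 over all samples) and Hepacam at 0.499 (0.641). Slc1a3 had r of 0.898.

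**Figure D3:**
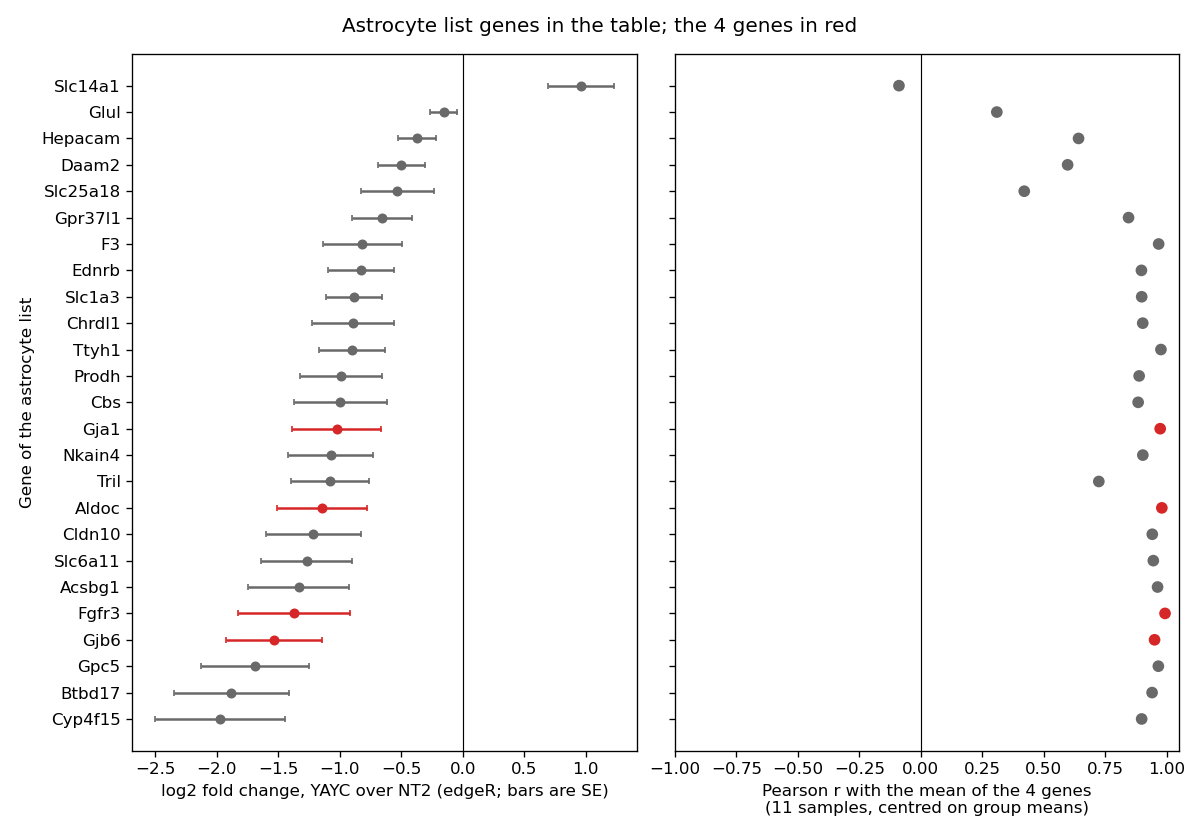
Left, log2 fold change of YAYC over NT2 with its SE (edgeR) for 25 of the 26 astrocyte list genes of the table. Right, Pearson's r of each gene with the mean of the 4 genes over the 11 samples, centred on group means; Gja1, Gjb6, Aldoc and Fgfr3 are red and enter that mean themselves. Slc14a1 (0.96) stands to the right of 0 in the left panel, and it, Glul and Slc25a18 have the lowest r.

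Over the 1571 other genes with a mean normalized count of at least 20, the median r with the 4 genes was −0.04. The 10 most alike were Ttyh1 (0.976), F3 (0.967), Acsl3 (0.967), Gpc5 (0.966), Acsbg1 (0.963), S1pr1 (0.958), Rfx4 (0.948), Slc6a11 (0.945), Cldn10 (0.941) and Tspan7 (0.941). Of these 10, 6 are on the astrocyte list, all but Acsl3, S1pr1, Rfx4 and Tspan7. Acsl3 and Acsbg1 encode acyl-CoA synthetases, Slc6a11 a GABA transporter, S1pr1 a receptor for sphingosine phosphate and F3 tissue factor. All 24 genes with r above 0.9 had a lower fitted level in YAYC, with TMM scaling. With the median log2 fold change of all listed genes at −0.13, lower fitted levels were common in the table, and nothing is read from this count.

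The 10 genes were the same with the authors' factors, and their r without NT2 sample 3 was between 0.905 (Cldn10) and 0.966 (Ttyh1). At the other end, the 5 genes with the lowest r were N4bp2l1 (−0.94), Atp13a3 (−0.92), Ehd1 (−0.91), Sh3bgr (−0.88) and Src (−0.87). N4bp2l1 (log2 fold change −0.12, edgeR adjusted p = 0.346) and Atp13a3 (−0.16, edgeR adjusted p = 0.302) were not called, and with the authors' factors N4bp2l1 was called lower (edgeR adjusted p = 0.0492). Ehd1, an endocytic recycling gene, was called higher in YAYC (log2 fold change 0.54, edgeR adjusted p = 0.014), as were Sh3bgr (1.03, edgeR adjusted p = 0.0438) and the tyrosine kinase gene Src (0.49, edgeR adjusted p = 0.0273).

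Of 29 listed genes of reactive astrocytes, 5 were in the table and all 5 were called higher, with both scalings, while the 4 genes were lower. Of all listed genes, 39.0% were called higher with TMM and 32.2% with the authors' factors. Serpina3n, which encodes a protease inhibitor, averaged 2910 ± 1688 (SD, n = 6) in NT2 and 12675 ± 2698 (SD, n = 5) in YAYC (log2 fold change 2.12, SE 0.35, edgeR adjusted p = 0.00229). The control with the highest Serpina3n was sample 3, at 5902 normalized counts, where the 4 genes were lowest. Within groups, Serpina3n had r of −0.56 with the mean of the 4 genes, and −0.24 without NT2 sample 3. The oncostatin M receptor gene Osmr (log2 fold change 0.73) and the low-count genes Timp1 (1.81), Steap4 (2.53) and Aspg (1.70) completed the 5, and r with the 4 genes ranged over the 5 from −0.56 to 0.352, and without NT2 sample 3 from −0.24 to 0.704 (Steap4).

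Genes beside the 4 in their pathways were few in the table. Of 26 gap junction symbols, 5 were listed, and 2 of these, Gja1 and Gjb6 themselves, were called lower (21.3% of all listed genes). Gjc1, a further connexin gene, stood at −0.50 (edgeR adjusted p = 0.073), and the junction scaffold gene Tjp1 at −0.22 (edgeR adjusted p = 0.145). With the authors' factors 4 of the 5 were called lower (47.3% of all listed genes). The r with the 4 genes was 0.27 for Gjc1 and 0.0859 for Tjp1 (−0.20 and −0.15 without NT2 sample 3). Aldoc was the single gene of 38 glycolysis symbols in the table.

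The receptors of fibroblast growth factors did not share a direction. Of 36 symbols of this pathway, 8 were listed, 2 called lower and 4 higher with TMM, and 3 lower and 4 higher with the authors' factors. The shares of all listed genes were 21.3% lower and 39.0% higher with TMM, and 47.3% and 32.2% with the authors' factors. Fgfr2 fell from 5101 ± 1179 (SD, n = 6) in NT2 to 3680 ± 386 (SD, n = 5) in YAYC (log2 fold change −0.47, edgeR adjusted p = 0.0279). Fgfr4 rose from 22.7 ± 7.51 (SD, n = 6) to 88.9 ± 26.3 (SD, n = 5), with a log2 fold change of 1.98 (edgeR adjusted p = 0.00184), and Fgfrl1, which encodes a receptor without a kinase domain, from 544 ± 103 (SD, n = 6) to 1077 ± 192 (SD, n = 5), with a log2 fold change of 0.98 (edgeR adjusted p = 0.00194). The r of these genes with the 4 was 0.51 for Fgfr2, −0.65 for Fgfr4 and 0.401 for Fgfrl1, and without NT2 sample 3 it was 0.201, −0.52 and 0.0679 in that order. Flrt3 (0.62) was also called higher, as was the co-receptor gene Klb, which had at most 1.87 normalized counts in a control. Etv5, a transcription factor gene, stood at −0.19 (edgeR adjusted p = 0.125) and the ligand gene Fgf22 at −0.84 (edgeR adjusted p = 0.112).

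Markers of other cell types were counted in the same samples. Of 21 vascular symbols, 13 were listed, 9 of them called lower and 4 not called, and 12 lower with the authors' factors. Their summed normalized count, led by Itm2a, was 11333 at the lowest, 15727 at the median and 18610 at the highest in NT2, and 7368, 9653 and 13168 at the same points in YAYC, so it was lower in the same direction as the 4 genes. Beside these counts stand the 21.3% of all listed genes called lower with TMM and the 47.3% with the authors' factors. The r of the vascular genes with the 4 lay between −0.42 (Pecam1) and 0.458 (Rgs5) with a median of −0.08. Without NT2 sample 3 it lay between −0.74 (Tek) and 0.0242 (Abcc9) with a median of −0.40, and 12 of the 13 were negative. The share of all listed genes with a negative r in that setting was not computed, so nothing is read from this count. The part of the vascular genes in the differences of the 4 genes was not tested.

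The 2 listed oligodendrocyte genes, of 24 symbols, were Ugt8a (log2 fold change −0.50, edgeR adjusted p = 0.0446) and Mal (−0.35, edgeR adjusted p = 0.0876), with r of 0.22 and 0.0539. Their summed normalized count had a median of 31570 in NT2 (23001 to 42202) and 23344 in YAYC (22156 to 26549). The 2 listed microglial genes, of 20, were P2ry12 (−0.35, edgeR adjusted p = 0.0954, r = 0.172) and Olfml3, called higher (0.57, edgeR adjusted p = 0.0279, r = −0.70). With the authors' factors Mal (edgeR adjusted p = 0.0358) and P2ry12 (edgeR adjusted p = 0.0363) were also called lower, where 47.3% of all listed genes were, against 21.3% with TMM. The 3 listed ependymal genes, of 8, were called higher (39.0% of all listed genes with TMM and 32.2% with the authors' factors), Foxj1 at 0.80, Tmem212 at 0.91 and Dynlrb2 at 0.82 on the log2 scale, and their r with the 4 genes was 0.265, 0.665 and 0.592. Without NT2 sample 3 the r was −0.05 for Ugt8a, −0.13 for Mal, −0.22 for P2ry12, −0.53 for Olfml3, 0.0725 for Foxj1, 0.505 for Tmem212 and 0.491 for Dynlrb2. None of the 16 general neuronal symbols was listed (0), and of 21 striatal neuron symbols only Pvalb was, with at most 10.5 normalized counts in NT2 and 8.01 to 32.4 in YAYC. At these low counts it was called higher, opposite to the 4 genes (log2 fold change 1.88, edgeR adjusted p = 0.0256, and 0.0321 with the authors' factors). What the cell type makeup contributed to the values of the 4 genes was not tested.

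Because the 4 genes moved together and the knockdown targets NF-Y, which binds the CCAAT box, the 250 bases before their RefSeq gene starts (build GRCm38.p6, which differs from that of the table) were searched for CCAAT on both strands, that is CCAAT or ATTGG. The 4 genes have 6 such windows, since Aldoc and Fgfr3 have 2 starts each. A match was found in 1 of the 6 windows, against 33.8% of all 32851 mouse windows of this length and 35.4% of the 1594 windows of listed genes. It lies in the upstream window of Fgfr3, with its first base 188 bases before the start, and it reads ATTGG on the strand of the gene. A match is a description of letters and not a site or a cause, and no match says only that these letters are not in the window. The windows are shown 5′ to 3′ on the strand of the gene for the single windows of the connexin genes and the upstream windows of Aldoc and Fgfr3, with the match in capitals; they are chr10:56377050-56377299 (plus strand) for Gja1, chr14:57133612-57133861 (minus strand) for Gjb6, chr11:78322823-78323072 (plus strand) for Aldoc and chr5:33721474-33721723 (plus strand) for Fgfr3.
Gja1: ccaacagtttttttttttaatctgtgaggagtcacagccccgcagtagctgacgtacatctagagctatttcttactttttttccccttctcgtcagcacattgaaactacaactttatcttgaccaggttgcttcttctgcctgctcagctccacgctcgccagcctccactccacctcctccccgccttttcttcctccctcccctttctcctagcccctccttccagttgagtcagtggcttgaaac
Gjb6: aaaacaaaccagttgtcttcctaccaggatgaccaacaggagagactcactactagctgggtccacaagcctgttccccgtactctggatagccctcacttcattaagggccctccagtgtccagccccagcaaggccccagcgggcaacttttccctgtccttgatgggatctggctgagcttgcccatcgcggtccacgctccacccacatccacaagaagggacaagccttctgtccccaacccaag
Aldoc: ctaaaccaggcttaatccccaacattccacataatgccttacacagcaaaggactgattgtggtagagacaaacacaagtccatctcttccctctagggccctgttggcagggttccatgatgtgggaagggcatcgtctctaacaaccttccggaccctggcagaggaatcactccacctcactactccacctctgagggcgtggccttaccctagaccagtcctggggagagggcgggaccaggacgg
Fgfr3: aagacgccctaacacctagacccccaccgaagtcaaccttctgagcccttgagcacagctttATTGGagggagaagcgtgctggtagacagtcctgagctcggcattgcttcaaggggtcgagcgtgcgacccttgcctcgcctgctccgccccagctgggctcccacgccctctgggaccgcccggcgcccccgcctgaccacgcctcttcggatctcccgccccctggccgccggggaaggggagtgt
The G and C content was 50.0% in the window of Gja1, 56.8% in that of Gjb6, 55.2% in that of Aldoc and 66.8% in that of Fgfr3. The other windows, 54.0% for Aldoc and 72.8% for Fgfr3, held no match.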

How the data were processed

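RNA-seq values of 6 NT2 and 5 YAYC samples were analysed, grouped by the vector in their labels. Strand NGS was the counting software, and the estimated counts that the authors deposited are raw and often fractional (46.4% whole within 1e-06). A second set of deposited columns holds log2 values, which were scaled by sample and set to a median of 0 for every gene. Their p-value and fold change columns were not used. The aligner is not given in the sources used here, and the build (mm9) comes from the submitters' processing notes.

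Estimated counts were rounded and fitted with edgeR 4.0.16 (R 4.3.3; TMM, glmQLFit, glmQLFTest) over all 1767 genes, without covariates and without a filter, and adjusted by the Benjamini-Hochberg method. Because the listed genes had been selected on the same contrast, adjusted p-values describe the table. A count of 0.5 was added before log2. Permutation tests used scipy 1.17.1. The cDNA was amplified, and the counts carry no molecular identifiers.

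The members and the gene lists were chosen with earlier results of these data known. Named genes are the 4 genes, the listed genes of each marker and pathway list, and the 10 most and 5 least like the mean of the 4. The alternatives were the authors' scaling factors (recovered from the 1247 genes above 50 counts in all samples), DESeq2 size factors, DESeq2 1.42.0, genes with a highest count of at least 200, the number block, samples 3 to 10, a robust fit, a pseudocount of 5 and leaving out samples. Of the fits, edgeR with TMM, edgeR with DESeq2 size factors and DESeq2 were also run on simulated counts. Those counts did not carry the authors' selection on this contrast, and the other fits were not simulated. Some listed genes are counted but not reported here by name.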

Additional observations from a re-analysis of the deposited data

Results flagged for a closer look

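The log2 ratio of Gja1 to Slc1a3 in NT2 sample 3 was −2.15, far from the next lowest control at −1.34, and the gap was 0.647 of the range of the 6 controls, above the critical value of 0.625. It was 1 of 32 groups of values examined, and chance marks about 1 in 20.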

How the results depend on the processing

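The 4 log2 fold changes kept their direction under every alternative run and passed edgeR's or DESeq2's threshold under all but samples 3 to 10 and some of the left-out samples. In samples 3 to 10, with fewer samples, Gja1 was at −1.18, Gjb6 at −1.50, Aldoc at −1.20 and Fgfr3 at −1.43, and 0 of the 4 genes were called. Leaving out each sample in turn gave −1.21 to −0.88 for Gja1, −1.72 to −1.29 for Gjb6, −1.35 to −0.88 for Aldoc and −1.58 to −1.07 for Fgfr3, with 1 to 4 genes called. The other alternatives, among them the authors' factors without NT2 sample 3, chosen after seeing the data, gave −1.35 to −0.98 for Gja1, −1.88 to −1.48 for Gjb6, −1.45 to −1.09 for Aldoc and −1.74 to −1.32 for Fgfr3.

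The median r of the 6 pairs in NT2 was 0.907 without the 2 samples farthest from the median, over 4 samples each, and 0.917 to 0.987 when single controls were left out. Centred on group means it was 0.913 to 0.965 when single samples were left out. The number of ratios with an adjusted p under 0.05 was 0 in every alternative run, while at an unadjusted exact permutation p under 0.05 there were 3 without NT2 sample 3 and 1 without YAYC sample 6. No paired analysis was run, since the groups share no sample number and no label pairs neighbouring numbers. Counts of genes outside the table were not used here.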
